A study of Rattus norvegicus with 12 samples.

Results

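The genes described here are 9 core parts of the machinery that releases neurotransmitter from synaptic vesicles: Snap25, Stx1a, Vamp1, Vamp2, Syt1, Cplx1, Cplx2, Rab3a and Syp. They were taken by symbol from a table of raw read counts with 31177 rows, and all 9 were found and had enough counts to be tested, among 18850 tested genes. The study sequenced brain RNA in 12 libraries, with 4 in each of 3 groups: controls labelled Sham, a group modelling Alzheimer's disease (AD), and a group with the AD model plus a high-fat diet (AD-HFD). The labels speak of mouse tissue, while the organism field is Rattus norvegicus and the gene identifiers are rat ones, so the genes are treated as rat genes. The labels give no strain, age, sex or brain region, no allele or agent that makes the AD model, and no time on the diet. All groups shared a pathogen-free facility with free access to food and water. A diet-only group was not analysed here, so the diet is seen only on top of the AD model. Nothing in the labels ties each library to its own animal, and the p-values reflect only the spread between these libraries, which may be technical.

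Transmitter release rests on SNARE proteins. Syntaxin-1A (Stx1a) and SNAP-25 (Snap25) sit on the presynaptic plasma membrane, and a synaptobrevin (Vamp1 or Vamp2) sits on the vesicle. These proteins zip into a bundle that pulls the membranes together. Synaptotagmin-1 (Syt1) is the calcium sensor that triggers fast release, complexins (Cplx1 and Cplx2) clamp and assist the assembled bundle, the GTPase Rab3a helps vesicles reach the active zone, and synaptophysin (Syp) is an abundant vesicle membrane protein that binds synaptobrevin. Vamp1 and Cplx1 are known to be strong in brainstem, thalamic and fast-firing neurons, and Vamp2 and Cplx2 in forebrain neurons.

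The regions upstream of the transcription starts of the vesicle SNAREs and the complexins are shown because the members of these paralog pairs differed from each other across the libraries. Each run is the 250 bases before the start, 5′ to 3′ on the gene's strand, from RefSeq on the rat build GRCr8, which had an entry for 8 of the 9 genes. The cyclic AMP response element TGACGTCA and its first 5 letters, TGACG, are in capitals, read on both strands (the 5-letter motif appears as CGTCA on the other strand, and lies inside the longer element). The Vamp1 region is chr4:159698644-159698893 (plus strand), the Vamp2 region chr10:54292539-54292788 (plus strand), the Cplx1 region chr14:1328823-1329072 (plus strand) and the Cplx2 region chr17:10236754-10237003 (minus strand).
Vamp1: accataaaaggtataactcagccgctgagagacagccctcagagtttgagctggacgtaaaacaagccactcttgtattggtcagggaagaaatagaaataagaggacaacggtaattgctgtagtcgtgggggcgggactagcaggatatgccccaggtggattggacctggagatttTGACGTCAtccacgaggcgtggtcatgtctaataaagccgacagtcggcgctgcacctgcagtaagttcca
Vamp2: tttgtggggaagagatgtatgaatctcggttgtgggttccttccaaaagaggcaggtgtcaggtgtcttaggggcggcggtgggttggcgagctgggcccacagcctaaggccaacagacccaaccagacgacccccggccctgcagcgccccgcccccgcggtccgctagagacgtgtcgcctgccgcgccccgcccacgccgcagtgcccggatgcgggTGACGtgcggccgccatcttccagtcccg
Cplx1: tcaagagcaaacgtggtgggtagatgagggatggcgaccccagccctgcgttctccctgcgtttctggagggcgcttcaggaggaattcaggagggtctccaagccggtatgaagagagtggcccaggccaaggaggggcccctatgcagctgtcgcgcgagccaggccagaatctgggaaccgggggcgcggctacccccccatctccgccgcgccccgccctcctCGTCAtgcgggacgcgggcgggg
Cplx2: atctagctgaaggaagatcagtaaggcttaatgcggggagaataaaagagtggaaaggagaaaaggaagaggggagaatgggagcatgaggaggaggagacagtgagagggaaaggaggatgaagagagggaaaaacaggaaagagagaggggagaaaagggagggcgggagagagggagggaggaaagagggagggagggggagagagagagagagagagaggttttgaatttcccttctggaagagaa
The full element stood in Vamp1 alone among the 8 genes with a sequence, 71 bases before the start, and in 1.59% of 33469 rat promoters of this length. The 5-letter motif stood in 4 of the 8 (Vamp1, Vamp2, Cplx1 and Rab3a) and in 18.2% of all promoters. The GC box GGGCGG, searched on both strands, stood in all 8 and in 30.5% of all promoters. The Vamp1 and Cplx2 regions had a GC content of 50.4% and 50.8%, below the 60.4% to 68.4% of the other 6. These matches are descriptions of the letters only.

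Total counts ran from 26668974 to 35351792 per library, and the 9 genes together took 0.995% ± 0.107 of them in Sham, against 0.670% ± 0.0413 in AD and 0.391% ± 0.245 with the diet added (SD, n = 4 each). Levels below are CPM, which are counts scaled to a common library size by TMM. They are not divided by gene length, so they are compared between libraries and not between genes. AD-3, for example, is the AD library that the labels number 3. Several libraries stand apart from their group in tissue content. Cortex markers (mean log2 CPM of 7 genes in the table) were at 6.82 to 7.26 in Sham, at 5.43 in AD-3, and at 1.36 to 2.19 in the other AD libraries. Their summed level was 2106 to 2895 CPM in Sham, 64.6 to 1307 CPM in AD and 394 to 2043 CPM in AD-HFD, and Emx1 was at 0 in AD-4. Thalamus markers (8 genes) ran from 1.70 to 2.29 in Sham and from 1.54 to 2.69 in AD-HFD. In AD they reached 7.06 (AD-1), 3.91 (AD-2) and 6.43 (AD-4) but only 1.88 in AD-3. AD-2 also had midbrain and brainstem markers at 5.37 against -2.08 to -1.94 in Sham. General neuron markers such as Rbfox3 and Tubb3 were present in all libraries, with means of 8.12 to 8.38 (Sham), 7.73 to 8.37 (AD) and 6.06 to 7.97 (AD-HFD). In whole tissue, fewer neurons and less RNA per neuron cannot be told apart. Red blood cell markers reached 7.34 in AD-HFD-4, against 2.72 to 3.64 in Sham.

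With the AD model and the diet together, most of the release machinery was lower than in Sham. In AD-HFD against Sham, 7 of the 9 genes fell (Snap25, Syt1, Vamp2, Cplx1, Cplx2, Rab3a and Syp), by 1.03 to 1.65 on the log2 scale, while 12.9% of all tested genes were called lower and 19.7% higher. All 9 differences were below 0, with a median of -1.32, against a median of 0.03 over all tested genes, of which 48.4% were below 0. In AD against Sham, none of the 9 was called by edgeR's quasi-likelihood test (6.23% of tested genes were called, 3.16% lower and 3.07% higher). Of the 9, 3 had an unadjusted p under 0.05 (Syt1, Vamp1 and Cplx2), where 4517 of all 18850 tested genes had. DESeq2 called 2 (Syt1 and Cplx2, both lower, where it called 13.8% of all tested genes, 5.93% lower) and limma voom none. The AD median was -0.54. In AD-HFD against AD, none of the 9 was called (0.0106% of tested genes were, 2 genes in all), and the median was -0.69. Of the 9, 4 had an unadjusted p under 0.05, where 5751 of all 18850 tested genes had. DESeq2 called 4 lower (Snap25, Vamp1, Cplx1 and Rab3a) and limma voom none. DESeq2 called 17.6% of all tested genes in this comparison, 8.22% lower. The comparisons share groups: AD against Sham and AD-HFD against Sham use the same Sham libraries, and AD-HFD against AD uses the same AD libraries as the first. A gene is called here at a Benjamini-Hochberg adjusted p under 0.05 over all 18850 tested genes, and differences are log2 fold changes ± SE.

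**Figure D1:**
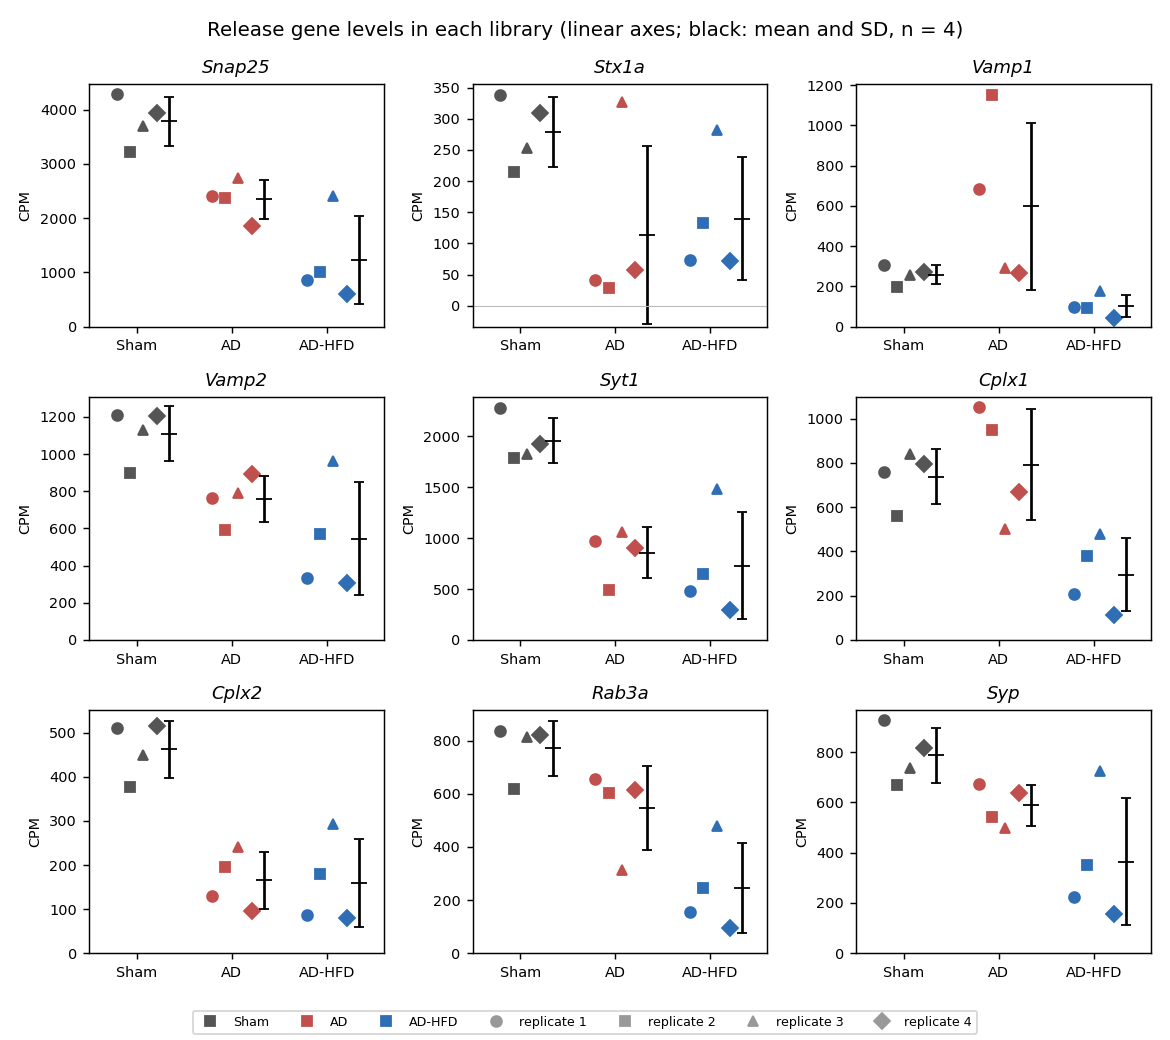
Level of each of the 9 genes in CPM (vertical axis, linear, TMM-scaled counts) in each of the 12 libraries, by group (colour) and replicate number (marker shape), with the group mean and SD in black (n = 4). The triangle of AD-HFD (AD-HFD-3) is the highest and the diamond (AD-HFD-4) the lowest AD-HFD library in all 9 panels, the Sham libraries lie close together, and the lower SD bar of Stx1a in AD reaches below 0 because 1 library is far above the other 3.

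Across the genes, the groups kept a common order with 3 exceptions. Mean CPM ran from Sham through AD to AD-HFD for 6 genes (Snap25, Vamp2, Syt1, Cplx2, Rab3a and Syp). Stx1a was lowest in AD, and Vamp1 and Cplx1 were highest in AD. None of the 9 was called between neighbouring groups in that order (Sham and AD, AD and AD-HFD) after adjustment over all tested genes. Some of them still had neighbouring groups that did not overlap, as given below. The libraries of AD-HFD differed more among themselves than those of Sham: the highest was 3.14 to 5.01 times the lowest, depending on the gene, against 1.27 to 1.58 times in Sham. In AD it was 1.35 to 11.6 times, and Stx1a (11.6 times) and Vamp1 (4.33 times) spread more widely there than in AD-HFD. AD-HFD-3 was the highest and AD-HFD-4 the lowest of AD-HFD for all 9 genes, and Sham-2 was the lowest of Sham for all 9.

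Of the plasma membrane SNAREs, Snap25 showed a graded pattern. It stood at 4287, 3215, 3693 and 3941 CPM in Sham-1 to Sham-4, at 2408, 2375, 2740.5 and 1854 CPM in AD-1 to AD-4, and in AD-HFD-1 to AD-HFD-4 at 859, 1010.0, 2416 and 609 CPM. Every AD and AD-HFD library lay below every Sham library, while AD-HFD-3 lay within the AD range. Snap25 fell by 1.63 ± 0.368 in AD-HFD against Sham (adjusted p = 0.00844 by edgeR's quasi-likelihood test), a level 3.09 times lower. AD differed from Sham by -0.69 ± 0.361 (adjusted p = 0.269), and AD-HFD from AD by -0.94 ± 0.362 (adjusted p = 0.112), neither called. Stx1a did not follow Snap25. It stood at 338, 214, 252 and 309 CPM in Sham-1 to Sham-4, at 41.5, 28.3, 328 and 58.3 CPM in AD-1 to AD-4, and in AD-HFD-1 to AD-HFD-4 at 73.9, 132, 282 and 72.1 CPM. The 3 AD libraries low in cortex markers were the lowest of all 12, and AD-3 and AD-HFD-3 lay within the Sham range. AD differed from Sham by -1.29 ± 0.699 (adjusted p = 0.286), AD-HFD from AD by 0.30 ± 0.689 (adjusted p = 0.795) and AD-HFD from Sham by -0.99 ± 0.694 (adjusted p = 0.282), and none was called. The AD value rests on AD-3: without it, Stx1a was called lower in AD than in Sham (-2.71, adjusted p = 0.00555) and higher in AD-HFD than in AD (1.71, adjusted p = 0.0198).

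The vesicle SNAREs Vamp1 and Vamp2 parted in AD. Vamp1 stood at 308, 199, 256 and 272 CPM in Sham-1 to Sham-4, at 681, 1152, 289.6 and 266 CPM in AD-1 to AD-4, and in AD-HFD-1 to AD-HFD-4 at 99.4, 94.9, 176 and 45.0 CPM. AD-1 and AD-2 lay above all other libraries, AD-3 and AD-4 lay within the Sham range, and all 4 AD-HFD libraries lay below all Sham and all AD libraries. AD differed from Sham by 1.21 ± 0.475 (adjusted p = 0.146), AD-HFD from AD by -2.52 ± 0.495 (adjusted p = 0.0605) and AD-HFD from Sham by -1.32 ± 0.477 (adjusted p = 0.0516), and none was called. It was called lower in AD-HFD than in Sham by DESeq2, by limma voom and with RLE scaling. Vamp2 stood at 1211, 896, 1129 and 1202 CPM in Sham-1 to Sham-4, at 763, 594, 793 and 893 CPM in AD-1 to AD-4, and in AD-HFD-1 to AD-HFD-4 at 336, 571, 964 and 307 CPM. All AD libraries lay below Sham, AD-4 only just, while AD-HFD-3 lay within the Sham range. Vamp2 fell by 1.03 ± 0.319 in AD-HFD against Sham (adjusted p = 0.0296), while the values of AD relative to Sham (-0.54 ± 0.317, adjusted p = 0.322) and of AD-HFD relative to AD (-0.48 ± 0.317, adjusted p = 0.318) were not called.

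The calcium sensor Syt1 stood at 2283, 1791, 1831 and 1929 CPM in Sham-1 to Sham-4, at 970.3, 492, 1059 and 908 CPM in AD-1 to AD-4, and in AD-HFD-1 to AD-HFD-4 at 479, 651, 1484 and 296 CPM. Both disease groups lay wholly below Sham and overlapped each other. Syt1 fell by 1.43 ± 0.418 in AD-HFD against Sham (adjusted p = 0.0234 by edgeR's quasi-likelihood test). AD differed from Sham by -1.19 ± 0.416 (adjusted p = 0.107) and AD-HFD from AD by -0.24 ± 0.410 (adjusted p = 0.720), neither called. Syt1 was 1 of 4 genes whose AD libraries all lay below Sham, with Snap25, Vamp2 and Cplx2, where 11.3% of all tested genes had AD wholly below Sham.

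The complexins parted in AD as well, and Cplx1, like Vamp1, was highest in AD-1 and AD-2. Cplx1 stood at 758, 558, 839.8 and 797 CPM in Sham-1 to Sham-4, at 1052, 947, 503.7 and 667 CPM in AD-1 to AD-4, and in AD-HFD-1 to AD-HFD-4 at 209.9, 378, 479 and 114 CPM. AD-1 and AD-2 were above all Sham libraries and AD-3 was below them, and the AD-HFD libraries lay below all others. Cplx1 fell by 1.32 ± 0.386 in AD-HFD against Sham (adjusted p = 0.0230). AD differed from Sham by 0.10 ± 0.379 (adjusted p = 0.900), and AD-HFD differed from AD by -1.42 ± 0.387 (adjusted p = 0.0618), neither called. Cplx1 and Vamp1 were the 2 of 9 genes with AD-HFD wholly below AD, where 2.74% of all tested genes were. Cplx2 stood at 511, 376, 449 and 514 CPM in Sham-1 to Sham-4, at 129, 197, 240.3 and 96.0 CPM in AD-1 to AD-4, and in AD-HFD-1 to AD-HFD-4 at 86.0, 179, 294 and 79.9 CPM. Both disease groups lay wholly below Sham, at about the same level as each other. Cplx2 fell by 1.53 ± 0.405 in AD-HFD against Sham (adjusted p = 0.0156). Its value for AD against Sham, -1.48 ± 0.404, missed the threshold by little (adjusted p = 0.0507), and it was called there by DESeq2 and with RLE, upper-quartile or total-count scaling. Its AD-HFD against AD difference was -0.05 ± 0.396 (adjusted p = 0.941).

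Rab3a, the vesicle GTPase, stood at 836, 618, 813 and 820.2 CPM in Sham-1 to Sham-4, at 655, 602, 313 and 616 CPM in AD-1 to AD-4, and in AD-HFD-1 to AD-HFD-4 at 157, 247, 480.2 and 96.6 CPM. AD-1 lay just above the lowest Sham library, Sham-2, and AD-HFD-3 lay within the AD range. Rab3a fell by 1.65 ± 0.413 in AD-HFD against Sham (adjusted p = 0.0126), 3.15 times lower. It was the member with the largest fitted fall there, next to Snap25. The values of AD relative to Sham (-0.50 ± 0.403, adjusted p = 0.486) and of AD-HFD relative to AD (-1.16 ± 0.408, adjusted p = 0.0929) were not called. Syp, the vesicle membrane protein, stood at 926, 669, 737 and 816 CPM in Sham-1 to Sham-4, at 673, 543, 499.7 and 636 CPM in AD-1 to AD-4, and in AD-HFD-1 to AD-HFD-4 at 225, 351, 724 and 158 CPM. AD-1 lay just above the lowest Sham library and AD-HFD-3 exceeded every AD library, so the groups overlapped in every comparison. Syp fell by 1.11 ± 0.372 in AD-HFD against Sham (adjusted p = 0.0394). AD differed from Sham by -0.42 ± 0.368 (adjusted p = 0.523) and AD-HFD from AD by -0.69 ± 0.370 (adjusted p = 0.224), neither called. In all, 6 of the 9 genes had AD-HFD wholly below Sham (Snap25, Syt1, Vamp1, Cplx1, Cplx2 and Rab3a), where 16.2% of all tested genes did.

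**Figure D2:**
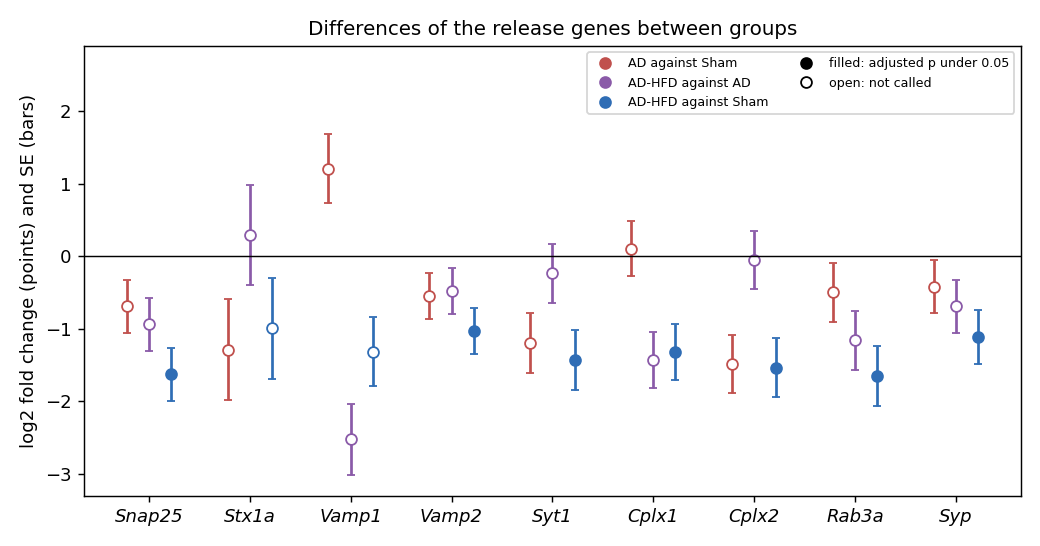
Log2 fold change (points) and SE (bars) of each of the 9 genes in the 3 comparisons (colours), filled where the adjusted p was under 0.05 by edgeR's quasi-likelihood test. The 7 filled points, all for AD-HFD against Sham, lie between -1.65 and -1.03, and Vamp1 has both the highest point (1.21, AD against Sham) and the lowest (-2.52, AD-HFD against AD).

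Ratios of paralogs within a library do not depend on library scaling. Their absolute size depends on gene length, so only differences between libraries are read. The log2 ratio of Vamp1 to Vamp2 was -2.11 ± 0.0893 in Sham, against -0.60 ± 1.25 in AD and -2.39 ± 0.442 with the diet added (SD, n = 4 each). It was 0.96 in AD-2, -0.16 in AD-1, -1.45 in AD-3 and -1.75 in AD-4, all above the Sham range of -2.17 to -1.98, and the AD-HFD libraries ran from -2.77 to -1.76, all below AD. The ratio was 1.51 higher in AD than in Sham and 1.79 lower in AD-HFD than in AD. Both differences had p = 0.0286 in an exact 2-sided permutation test, the smallest that 4 against 4 libraries allow, and 0.0857 after adjustment over the 9 tests of 3 pairs in 3 comparisons. The log2 ratio of Cplx1 to Cplx2 was 0.67 ± 0.158 in Sham, against 2.29 ± 0.875 in AD and 0.90 ± 0.352 with the diet added. AD-1 was at 3.03, AD-4 at 2.80, AD-2 at 2.27 and AD-3 at 1.07, where Sham ran from 0.57 to 0.90. This difference of 1.62 between AD and Sham had p = 0.0286 in the exact permutation test and an adjusted p of 0.0857, and the AD-HFD value was 1.39 below AD (exact permutation p = 0.0857, adjusted 0.154).

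The third pair was synaptotagmin-2, the fast calcium sensor typical of hindbrain synapses, to synaptotagmin-1. Syt2 itself stood at 30.5, 25.1, 39.4 and 34.5 CPM in Sham-1 to Sham-4, at 73.7, 137, 10.7 and 24.9 CPM in AD-1 to AD-4, and in AD-HFD-1 to AD-HFD-4 at 8.31, 7.36, 14.1 and 0.798 CPM. AD-1 and AD-2 were again the highest libraries. The log2 ratio of Syt2 to Syt1 was -5.93 ± 0.321 in Sham, against -4.34 ± 2.04 in AD and -6.86 ± 1.11 with the diet added, and AD overlapped Sham (exact permutation p = 0.229, adjusted 0.257). Between AD-HFD and Sham, no pair differed beyond its spread: the differences in log2 ratio were -0.28 for Vamp1 to Vamp2, 0.23 for Cplx1 to Cplx2 and -0.93 for Syt2 to Syt1 (exact permutation p = 0.229, 0.257 and 0.114). None of the 9 tests passed after adjustment. The highest ratios, those of AD-1 and AD-2 for the synaptobrevins and synaptotagmins and of AD-1 and AD-4 for the complexins, came from libraries high in thalamus or brainstem markers. The AD library nearest to Sham was AD-3, with most cortex markers, for the complexins. For the synaptobrevins it was AD-4, high in thalamus and hypothalamus markers. The part of region in the ratios was not tested.

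**Figure D3:**
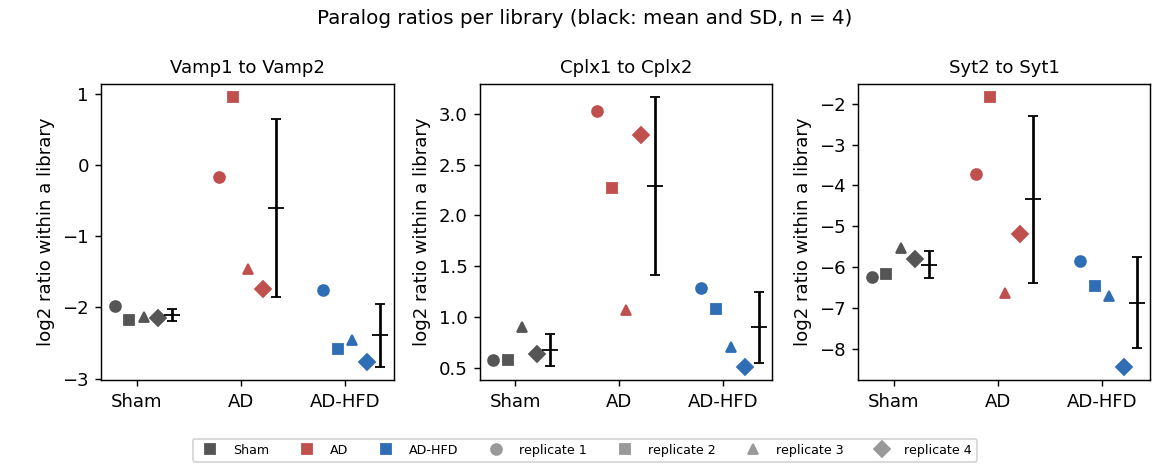
Log2 ratio within a library (vertical axis) of Vamp1 to Vamp2, Cplx1 to Cplx2 and Syt2 to Syt1 for the 12 libraries by group (colour) and replicate number (marker shape), with mean and SD in black (n = 4). The 4 AD libraries lie above all Sham libraries for the first 2 pairs, and AD-2 is the highest for Vamp1 to Vamp2 (0.96) and Syt2 to Syt1 (-1.84).

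Within AD-HFD, the release genes and the neuron markers put the libraries in the same order, while in AD they did not. The mean log2 CPM of the 9 genes was 9.33 to 9.81 in Sham, 8.77 to 9.09 in AD and 7.16 to 9.20 in AD-HFD. In AD-HFD, the order of the libraries was that of the 12 neuron markers: AD-HFD-3 (release 9.20, neuron 7.97), AD-HFD-2 (8.28 and 7.20), AD-HFD-1 (7.68 and 6.80) and AD-HFD-4 (7.16 and 6.06). In AD, AD-3 had the highest release mean (9.09) and the lowest neuron mean (7.73), and AD-2, with the highest neuron mean (8.37), had a release mean of 8.91. The neuron markers summed to 4797 to 5962 CPM in Sham, 4016 to 6714 CPM in AD and 1190 to 4600 CPM in AD-HFD, and none was at 0 in any library. Of these 12 markers, 7 were called lower in AD-HFD against Sham (Rbfox3, Tubb3, Uchl1, Elavl4, Ina, Nefl and Nefm; median of the 12 -1.10), and none in AD against Sham (median -0.04) or AD-HFD against AD (median -0.96). With the neuron marker mean as a covariate, none of the 9 genes was called in AD-HFD against Sham (edgeR's quasi-likelihood test, range of log2 fold changes -0.67 for Snap25 to 0.16 for Vamp1, adjusted p 0.501 to 0.973). That fit called only 0.281% of all tested genes, 0.0531% lower, against 32.7% and 12.9% without the covariate. The loss of calls is therefore not particular to the release genes. The release mean minus the neuron mean was 1.33 ± 0.114 in Sham, against 0.849 ± 0.354 in AD and 1.07 ± 0.142 with the diet added (log2, SD, n = 4), and AD-3 (1.36) lay within the Sham range while the other AD libraries (0.538 to 0.778) lay below it.

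Relative to the neuron markers, the members were not alike. Vamp2 stood 1.82 ± 0.111 above the neuron mean in Sham and 1.92 ± 0.247 in AD-HFD, and Syp 1.33 ± 0.136 and 1.26 ± 0.209 (log2 CPM, SD, n = 4). Rab3a went from 1.30 ± 0.103 in Sham to 0.678 ± 0.206 in AD-HFD, Snap25 from 3.59 ± 0.0950 to 3.05 ± 0.223, and Cplx2 from 0.558 ± 0.137 to 0.0994 ± 0.314, with no overlap between the groups. For Vamp2, Syp, Syt1, Cplx1, Vamp1 and Stx1a the groups overlapped. Mean Syt1 was 2.64 in Sham and 2.24 in AD-HFD, Cplx1 1.23 and 0.995, Vamp1 -0.29 and -0.47, and Stx1a -0.18 and -0.12. The share of all tested genes without overlap on this scale was not computed. In AD, with the neuron covariate, Cplx2 was called lower (-1.28, adjusted p = 0.0303 by edgeR's quasi-likelihood test) and Vamp1 higher (1.32, adjusted p = 0.0238) than in Sham. That fit called 11.1% of all tested genes, 5.12% lower. With the difference between cortex and thalamus markers as a covariate, neither Cplx2 (-0.15, adjusted p = 0.917) nor Vamp1 (1.32, adjusted p = 0.497) was called. Snap25, Stx1a, Vamp2 and Syp were then above 0 in AD. This fit called 4.36% of all tested genes, 0.796% lower. AD-1, AD-2 and AD-4 lay far from every Sham library in these markers, so the covariate and the group cannot be told well apart. In AD-HFD against Sham, 5 genes were called lower with this covariate (Snap25, Syt1, Cplx1, Cplx2 and Rab3a), where 14.5% of all tested genes were. Other markers were called higher in AD-HFD against Sham, where 19.7% of all tested genes were. They included 5 of 5 red blood cell markers (summed level 253 to 4204 CPM, against 159 to 361 CPM in Sham) and 4 of 5 leptomeninges markers (94.3 to 539 CPM, against 50.3 to 460.0 CPM). Of 8 microglia markers, 5 were called higher (summed level of the 8, 285 to 534 CPM, against 199.8 to 229.7 CPM). Another, P2ry12, was called lower (mean 3.68 CPM, against 11.1 CPM in Sham). Of 8 oligodendrocyte markers 2 were called higher, near the share over all tested genes. The 8 summed to 6695 CPM in AD-HFD-3, the AD-HFD library highest in release genes. They summed to 29798 to 47735 CPM in the other AD-HFD libraries and 8444 to 20389.8 CPM in Sham. Choroid plexus markers, none of them called, summed to 10193 CPM in AD-HFD-1, 4493 CPM in Sham-2 (the lowest Sham library for all 9 genes) and 4449 CPM in Sham-3, and to at most 512 CPM in the other libraries. The part of these markers in the release gene values was not tested.

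**Figure D4:**
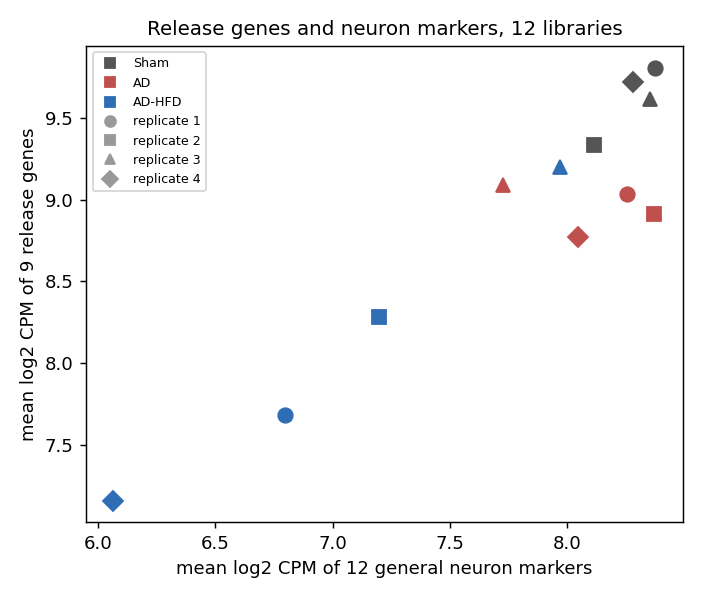
Mean log2 CPM of the 9 release genes (vertical axis) against that of 12 general neuron markers (horizontal axis) in the 12 libraries, by group (colour) and replicate number (marker shape). AD-HFD-4 is lowest on both axes (7.16 and 6.06). All 4 AD libraries lie below the Sham libraries on the vertical axis, AD-3 at a neuron mean of 7.73 and the others at 8.05 to 8.37.

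Several counts changed when a single library was left out, and so did the share of all tested genes called. In AD-HFD against Sham, between 3 and 8 genes were called when 1 library was left out: 3 without Sham-1, Sham-4 or AD-HFD-1, 4 without Sham-3 or AD-HFD-2, 5 without AD-HFD-4, 6 without Sham-2 or AD-1, 7 when AD-2 or AD-4 was left out, and 8 without AD-3 or AD-HFD-3. Snap25, Cplx2 and Rab3a were called in all 12 of these fits, and Syp in those without AD-3 or AD-HFD-3 only. Without AD-3, the AD library with most cortex markers, Stx1a and Cplx2 were called lower in AD against Sham, and Vamp1, Cplx1 and Rab3a lower and Stx1a higher in AD-HFD against AD. Without AD-HFD-3, the AD-HFD library highest in all 9 genes, Snap25, Syt1 and Cplx2 were called lower in AD against Sham, and Snap25, Vamp1, Vamp2, Cplx1, Rab3a and Syp lower in AD-HFD against AD. Calls over all genes moved too: in AD-HFD against AD, leaving out AD-3 brought the share of tested genes called to 30.3%, and leaving out AD-HFD-3 to 27.6%. In AD-HFD against Sham, the share called lower was 12.9% with all 12 libraries. It was 5.68%, 6.51% and 7.03% without Sham-1, Sham-4 and AD-HFD-1, and 16.6% and 20.1% without AD-3 and AD-HFD-3. In AD against Sham, that share was 3.16% with all 12 libraries, and 6.36% and 6.01% without AD-3 and AD-HFD-3. A further fit left out both AD-HFD-3 and AD-HFD-4. In AD against Sham, AD-HFD against AD and AD-HFD against Sham, 6.97%, 3.9% and 14.2% of all tested genes were then called lower. Of the 9 release genes, 3, 5 and 7 were, in that order. With AD-3 as the only AD library, 0 were called in the first 2 comparisons and 6 in the last. The first 2 then rest on a group of 1 library, assumed to vary like the libraries of the other groups, so these 0 counts say nothing about stability.

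**Figure D5:**
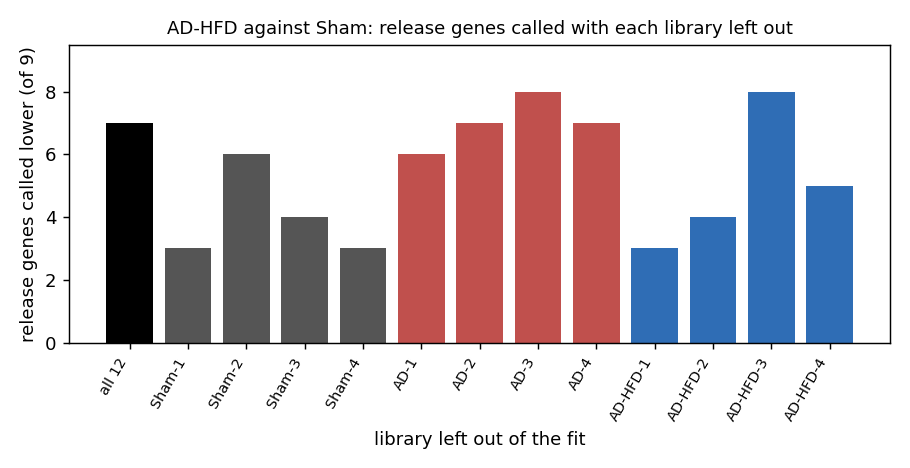
Number of the 9 release genes called lower in AD-HFD against Sham (adjusted p under 0.05, edgeR's quasi-likelihood test) with all 12 libraries and with each library left out (bars, coloured by the group of the library). The count is 7 with all 12 and runs from 3 to 8. The share of all tested genes called lower ran from 5.68% to 20.1% over the fits with 1 library left out.

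The wider pathway was read from 67 further genes in 6 lists by role, of which 65 were in the table and 64 were tested. In AD against Sham, 6 were called lower and 2 higher (median -0.35), where 3.16% of all tested genes were called lower and 3.07% higher. Among genes of SNARE assembly and priming, 2 of 11 fell: the priming factor Unc13b (-1.22 ± 0.286, adjusted p = 0.0295 by edgeR's quasi-likelihood test) and the syntaxin-binding tomosyn gene Stxbp5 (-0.73 ± 0.196, adjusted p = 0.0480). Of 17 Rab3 and active zone genes, 3 fell: Rab3d from 28.6 ± 3.93 to 10.5 ± 2.28 CPM (-1.44 ± 0.234, adjusted p = 0.00711), Rab3b (-1.10 ± 0.280) and the Rab3 effector Rph3a (-0.73 ± 0.191). Of 11 vesicle membrane genes and synapsins, synaptoporin Synpr fell (-1.46 ± 0.366) and the vesicle glycoprotein gene Sv2c rose (1.42 ± 0.357). The vesicular glutamate transporter Slc17a6, typical of thalamus and brainstem and also in the thalamus list, rose by 3.82 ± 0.687 (adjusted p = 0.0107), with 440.2, 278, 24.1 and 323 CPM in AD-1 to AD-4 and 9.28 to 26.2 CPM in Sham. AD-3 again lay within the Sham range. No gene of the calcium sensor list (11) or the endocytosis list (8) was called. The smallest p values there were those of Syt9 (2.19 ± 0.622, adjusted p = 0.0584), Syt12 (-0.93 ± 0.306, adjusted p = 0.0911), Amph (-0.69 ± 0.348, adjusted p = 0.25) and Sh3gl2 (-0.44 ± 0.310, adjusted p = 0.419).

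In AD-HFD against AD, none of the 64 pathway genes was called by edgeR's quasi-likelihood test, 22 had an unadjusted p under 0.05, DESeq2 called 16 and limma voom none (median -0.49). Over all 18850 tested genes, 5751 had an unadjusted p under 0.05, a share close to that of the pathway, and DESeq2 called 17.6%. The values with the smallest p were -4.31 ± 0.704 for Slc17a6 (adjusted p = 0.0605), -2.98 ± 0.655 for the calcium sensor Syt9, -3.01 ± 0.787 for Syt2, -1.92 ± 0.438 for the active zone gene Rims3, 0.97 ± 0.233 for Rab3d and -1.17 ± 0.269 for the dynamin gene Dnm3. Slc17a6, like Vamp1, had AD-HFD wholly below AD, but its AD-HFD libraries overlapped Sham. In the other lists small p values belonged to Unc13b (0.86 ± 0.284), to Sv2a (-1.25 ± 0.378) and Syngr3 (-0.86 ± 0.304), to Pacsin1 (-0.88 ± 0.400), and to the inhibitory vesicle transporter Slc32a1 (-1.41 ± 0.402).

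In AD-HFD against Sham, 23 of the 64 pathway genes fell and 1 rose (median -0.83, beside 0.03 over all tested genes, of which 12.9% were called lower and 19.7% higher). Of 11 SNARE assembly and priming genes, 5 fell, among them the SNARE-recycling pair Nsf (1301 ± 109.7 CPM in Sham, 529.9 ± 327 CPM in AD-HFD; -1.30 ± 0.347, adjusted p = 0.0166) and Napa (-0.94 ± 0.169, adjusted p = 0.00388), with Snap47 (-1.15 ± 0.211) and Stxbp5 (-0.67 ± 0.196). Of 11 calcium sensors, 3 fell: Syt12 (-1.45 ± 0.310), Syt6 (-1.34 ± 0.385) and Doc2a (-1.55 ± 0.448). Of 17 Rab3 and active zone genes, 4 fell, and Rph3a had the smallest p of the pathway (347 ± 57.4 CPM in Sham, 131 ± 33.1 CPM in AD-HFD; -1.40 ± 0.194, adjusted p = 0.00181). The others were the active zone scaffolds Rims2 (-1.06 ± 0.266) and Rims3 (-1.48 ± 0.434) and the Rab3 regulator Rab3gap1 (-0.51 ± 0.156). Of 11 vesicle membrane genes and synapsins, 6 fell, led by Syngr1 (-1.05 ± 0.291), Syn1 (-1.41 ± 0.398), Scamp1 (-0.63 ± 0.179) and Scamp5 (-0.96 ± 0.280). Of 8 endocytosis genes, 5 fell, led by amphiphysin Amph (-1.43 ± 0.353), Sh3gl2 (-1.02 ± 0.313), Dnm3 (-0.80 ± 0.267) and Dnm1 (-1.21 ± 0.430). The acetylcholine transporter Slc18a3 rose by 2.69 ± 0.654 (adjusted p = 0.0113), from 1.22 ± 0.275 to 7.84 ± 1.02 CPM (SD, n = 4). As for the 9 release genes, none of the 64 was called with the neuron marker mean as a covariate, where 0.281% of all tested genes were. The count ran from 9 without Sham-1 or AD-HFD-1 to 43 without AD-HFD-3. Of all tested genes, 18.2%, 22.6% and 44.6% were called without Sham-1, AD-HFD-1 and AD-HFD-3.

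Across the 12 libraries, the 36 pairs of release genes had Pearson correlations of log2 CPM from -0.23 (Stx1a with Vamp1) to 0.97 (Rab3a with Syp), with a median of 0.783. These points share library, group and neuron content, so the values are descriptions. The lowest correlations involved Stx1a (median of its 8 pairs 0.457) and Vamp1 (0.593), and Vamp1 was most like Cplx1 (0.888). Among 9638 other genes with a mean of at least 10 CPM, those most like Rab3a over the 12 libraries included Gpr61 (r = 0.993) and Scn2b (0.990), and those most like Syp were Ptprs, Prune2 and Rab6b (all 0.991). For Snap25 they were Tspan7 (0.989), Prkcb (0.987) and St8sia3 (0.986), and for Syt1 Dlg3, Fbxw7 and Pcdhga7 (0.980 to 0.982). Stx1a was closest to Nptxr (0.984), Actr3b and Arhgap33 (both 0.977). Vamp2 was closest to Rundc3a, Abcc10 and Gnao1 (all 0.983), and Vamp1, with the lowest values, to Iglon5 (0.966), Abcf3 (0.960) and Rimkla (0.956). Cplx1 was closest to Cend1 (0.988), Got1 (0.986) and the fast potassium channel gene Kcnc1 (0.983), and Cplx2 to Pou6f1 (0.981), the neuronal pentraxin Nptx1 (0.978) and Pde8b (0.976).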

How the data were processed

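RNA from 12 brain samples was sequenced. Per the labels' protocols, TRIzol was used for extraction and the Yeasen Hieff dual-mode mRNA kit for the libraries. FastQC and Trimmomatic are named, with no version, in the submitters' processing notes. Aligner, counting program, strand setting, genome build and annotation are not given in the sources used here. Reads of overlapping or antisense genes therefore cannot be told apart, and the coordinates printed are only those of the RefSeq promoter table. The values deposited by the authors are raw read counts, in a single table with genes in rows. Groups and replicate numbers come from the labels' library names.

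The counts were fitted with edgeR 4.0.16 (R 4.3.3): filterByExpr on the groups (18850 of 31177 rows, which include 9127 new loci), TMM scaling, a non-legacy quasi-likelihood fit with 1 mean per group over all 12 libraries, and Benjamini-Hochberg adjustment over all tested genes, called under 0.05. The SE is the size of the log2 fold change divided by the square root of F. Marker means and ratios use log2 CPM with a prior count of 2. Ratios were tested by exact permutation. The fit was checked on simulated counts with 200 changed genes. Alternatives were DESeq2 1.42.0, limma 3.58.1 voom, other scalings and filters, covariates, a replicate block and left-out libraries.

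The genes named are the 9 members, the called genes of each role list up to the 4 with the smallest p (2 given as values where none was called), 3 paralog pairs, and the 3 genes most correlated with each member. Some genes that this rule takes are left out of the text. The members and lists were chosen with earlier results of these data known. Snap23, Sv2b, Neurod2 and Pecam1 were not matched by symbol in the table. Other marker lists, by members called lower and higher, gave the following in AD against Sham: cortex 2 and 0 of 7, thalamus 0 and 6 of 8, hypothalamus 0 and 4 of 9, midbrain and brainstem 0 and 3 of 4, microglia 0 and 1 of 8, and none for inhibitory neurons (6), oligodendrocytes (8), astrocytes (7), endothelium (3), choroid plexus (5), red blood cells (5) or leptomeninges (5). In AD-HFD against Sham they gave inhibitory neurons 1 and 0 of 6, oligodendrocytes 0 and 2 of 8, astrocytes 1 and 1 of 7, microglia 1 and 5 of 8, endothelium 0 and 2 of 3 and hypothalamus 0 and 2 of 9, with none for cortex, thalamus, midbrain and brainstem or choroid plexus. None of these markers was called in AD-HFD against AD. Of all tested genes, 3.16% were called lower and 3.07% higher in AD against Sham, and 12.9% and 19.7% in AD-HFD against Sham. The 7 cortex markers, though not called, were all below 0 in AD-HFD against Sham (median -1.72). Of them, 5 lay wholly below Sham, where 16.2% of all tested genes did. No 2 libraries of the same group agreed within sampling noise.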

Additional observations from a re-analysis of the deposited data

Results flagged for a closer look

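In 3 of 36 sets of 4 libraries (9 release genes and 3 paralog ratios in each of 3 groups), 1 library lay far from the other 3 by Dixon's test at the 95% level, which chance does in about 1 of 20 sets. Stx1a was at 327.543 CPM in AD-3, against 28.3 to 58.3 CPM in the other AD libraries. Rab3a was at 313.183 CPM in AD-3, against 602 to 655 CPM in the other AD libraries, so that AD-3 was high for one gene and low for the other. Rab3a was also at 617.697 CPM in Sham-2, against 813 to 836 CPM in the other Sham libraries.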

How the results depend on the processing

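For the 9 release genes, the count in AD against Sham, 0, became 1 with RLE, upper-quartile or total-count scaling or with the replicate block, 2 with DESeq2 or the neuron covariate, 3 with the 2 groups alone, 3 with both AD-HFD-3 and AD-HFD-4 left out, and 0 to 3 with 1 library left out. In AD-HFD against AD, 0 became 4 with DESeq2, 5 with both AD-HFD-3 and AD-HFD-4 left out, and 0 to 6 with 1 library left out. For AD-HFD relative to Sham, 7 became 0 with the neuron covariate and 3 to 8 with 1 library left out. For the 64 pathway genes, 8 called in AD against Sham became 16 with DESeq2, 5 with no filter or with the replicate block, 13 and 3 with the neuron and the cortex minus thalamus covariates, 19 with the 2 groups alone, 2 with AD-3 as the only AD library, 22 with both AD-HFD-3 and AD-HFD-4 left out, and 2 to 19 with 1 library left out. In AD-HFD against AD, 0 became 16 with DESeq2, 24 with both AD-HFD-3 and AD-HFD-4 left out, and 0 to 41 with 1 library left out. For AD-HFD relative to Sham, 24 became 0 with the neuron covariate, 37 with both AD-HFD-3 and AD-HFD-4 left out, and 9 to 43 with 1 library left out. The share of all tested genes called moved as well. In AD-HFD against Sham it was 32.7% in the main fit and 0.281% with the neuron covariate. It was 32.1% with both AD-HFD-3 and AD-HFD-4 left out, and ran from 18.2% to 44.6% there with 1 library left out. In AD against Sham, the main share of 6.23% ran from 1.56% to 12.1% with 1 library left out. It was 13.8% with DESeq2, 13.1% with the 2 groups alone and 14.1% with both AD-HFD-3 and AD-HFD-4 left out. The neuron and the cortex minus thalamus covariates gave 11.1% and 4.36%. RLE, upper-quartile and total-count scaling gave 6.38%, 6.76% and 6.11%, no filter 3.76% and the replicate block 4.51%. In AD-HFD against AD, the main share of 0.0106% became 17.6% with DESeq2 and 9.57% with both AD-HFD-3 and AD-HFD-4 left out. It reached 30.3% with 1 library left out. The cause of these changes was not tested.

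Log2 fold changes changed sign as follows. With the cortex minus thalamus covariate, Snap25 (0.27), Stx1a (0.81), Vamp2 (0.018) and Syp (0.089) in AD against Sham, and Stx1a (-1.12) in AD-HFD against AD. With the neuron covariate, Syt1 (0.52), Vamp2 (0.20), Cplx2 (0.64), Rab3a (0.021) and Syp (0.26) in AD-HFD against AD, and Vamp1 (0.16), Cplx1 (0.053) and Syp (0.055) in AD-HFD against Sham. With AD-3 as the only AD library, Stx1a (0.22) and Cplx1 (-0.56) in AD against Sham, with Stx1a (-1.22) in AD-HFD against AD. Stx1a was at -0.15 with both AD-HFD-3 and AD-HFD-4 left out, and Cplx2 at 0.0095 with total counts, both in AD-HFD against AD. With 1 library left out, Cplx1 ran from -0.039 to 0.27 in AD against Sham, and for AD-HFD relative to AD, Syt1 from -0.85 to 0.025, Stx1a from -0.30 to 1.71 and Cplx2 from -0.53 to 0.18. No difference in paralog ratio changed sign in any alternative. No adjusted p was computed for those alternatives, so they do not bear on the adjusted threshold. The same-numbered libraries did not deviate together (12 correlations from -0.32 to 0.09), so no sign of pairing by number was seen. Libraries with different numbers reached -0.33 and 0.40. Such correlations cannot show that the libraries were unpaired. Depth bears mainly on low genes such as Syt2 in AD-HFD-4 (0.798 CPM), as the lowest value of the 9 genes was 28.3 CPM (Stx1a in AD-2).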
